A study of Mus musculus with 6 samples.

Results

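The interleukin-12 (IL-12) family subunits are 5 protein-coding genes, Il12a, Il12b, Il23a, Il27 and Ebi3, out of 24752 genes measured by RNA sequencing in mouse bone marrow-derived macrophages. They were chosen by gene symbol, and each symbol was found once. The 6 libraries formed 3 groups of 2, with replicates B and C named after the labels. Glul_LPS cells were labelled as overexpressing Glul, the gene of glutamine synthetase, and as treated with LPS. LPS cells were treated with LPS (lipopolysaccharide, which macrophages detect through Toll-like receptor 4) with no overexpression named, and control cells had neither in their label. All cells were grown for 7 days from the marrow of mice aged 8 to 10 weeks, in 10 ng/ml M-CSF (the macrophage growth factor). Lentiviral vectors, either control or carrying Glul, were applied for 36 h, and LPS was given at 100 ng/ml for 3 h. The labels name no promoter of the vector, do not say which vector the LPS and control cells carried, and give no strain, and there was no group with the Glul vector but without LPS.

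The family consists of secreted cytokines, each built from a helical subunit and a partner that resembles a soluble cytokine receptor. IL-12 joins p35 (Il12a) with p40 (Il12b) and drives T helper 1 cells and interferon gamma. IL-23 joins p19 (Il23a) with the same p40 and maintains T helper 17 cells. IL-27 joins p28 (Il27) with Ebi3 and both promotes and restrains T cell responses, and IL-35 joins p35 with Ebi3. Activated macrophages and dendritic cells are main sources of IL-12, IL-23 and IL-27, and a subunit without its partner may be secreted alone (p40) or kept in the cell.

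In LPS cells the 4 subunits that could be tested rose over control cells, where 17.1% of all genes tested were called higher. Il12a and Il12b could be tested only through LPS-treated libraries, so this count is a description. In Glul_LPS cells the p40 and p28 transcripts were called lower than in LPS cells, where 0.556% of all genes tested were called lower. Both calls were fragile, and each was lost without any single Glul_LPS or LPS library. The p35 and Ebi3 transcripts did not pass the test, and protein was not measured. Il12b averaged 16.6 ± 2.77 FPKM in Glul_LPS cells, 47.3 ± 10.1 FPKM in LPS cells and 0.155 ± 0.0117 FPKM in control cells (SD, n = 2 each). FPKM scales the fragments sequenced from a gene to its exon length and to the library total, so levels of different genes can be compared. Il27 averaged 289 ± 0.57, 423 ± 21.9 and 2.74 ± 0.0459 FPKM in Glul_LPS, LPS and control cells (SD, n = 2 each). Ebi3 was the subunit already abundant without LPS, at 66.7 ± 2.25 FPKM in Glul_LPS, 53.6 ± 1.08 FPKM in LPS and 33.6 ± 2.09 FPKM in control cells (SD, n = 2 each). Il23a was barely detected in any group. In RNA from whole cultures, fewer cells making a transcript and less of it per cell cannot be told apart.

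**Figure D1:**
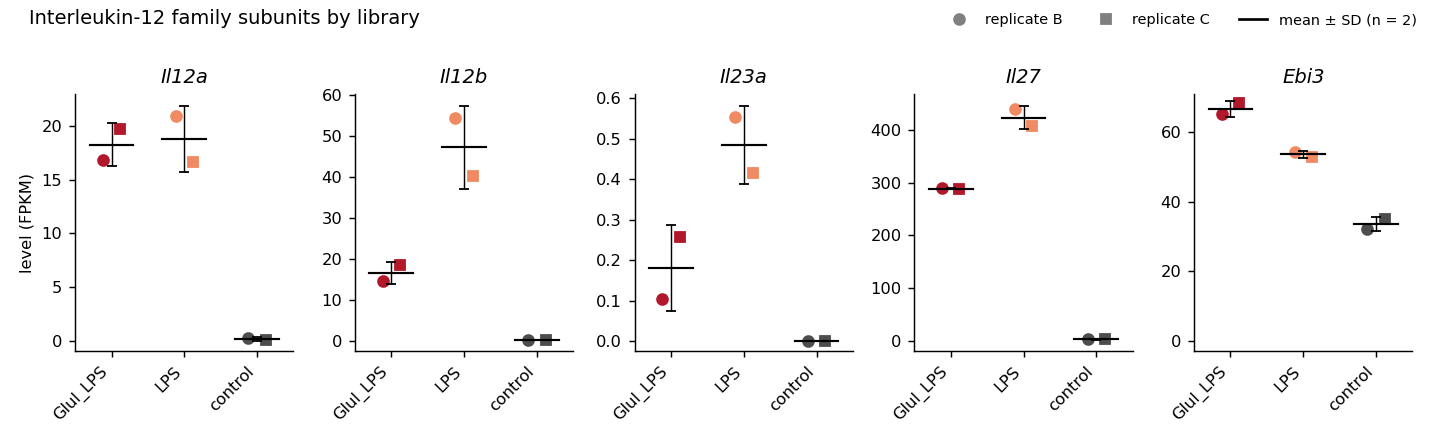
Level of each subunit in FPKM (vertical axes, linear, each with its own range) in the 6 libraries, by group. Circles are replicate B, squares replicate C, and the bar and whiskers give the mean and SD of 2 libraries. Il12b and Il27 are lower in both Glul_LPS libraries than in both LPS libraries, Ebi3 is higher, and Il12a overlaps.

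The libraries held 15649764 to 18691669 fragments. The macrophage markers Adgre1, Csf1r, Cd68, Mertk, Fcgr1, Itgam and Lyz2 were all present, with Lyz2 at a mean of 15987 FPKM. Of the dendritic cell markers, 1 of 6 (Xcr1) reached 1 FPKM in any library, and the list summed to 1.39 to 1.53 FPKM in Glul_LPS, 1.47 to 1.99 FPKM in LPS and 1.01 to 1.07 FPKM in control libraries. Flt3 and Zbtb46, which define dendritic cells, averaged 0.0052 and 0.0395 FPKM in Glul_LPS and 0.0145 and 0.0919 FPKM in LPS cells. Of the T cell markers only Cd4 passed 1 FPKM (mean 10.1 FPKM, with Cd3d, Cd3e and Cd3g each under 0.1 FPKM in group means), and no B cell marker (Cd79a highest, mean 0.0843 FPKM) or natural killer cell marker (Ncr1 highest, mean 0.2 FPKM) did. Neutrophil markers were led by S100a8 (mean 6.12 FPKM) and stromal markers by Col1a1 (mean 1.08 FPKM). Glul, the gene named as overexpressed, averaged 37.5 ± 0.397 FPKM in Glul_LPS, 32 ± 2.02 FPKM in LPS and 140 ± 0.0479 FPKM in control cells (SD, n = 2 each), and its log2 change of 0.22 between Glul_LPS and LPS did not pass the test (adjusted p = 0.122, against 0.045 in limma voom on fragments).

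The subunit genes lie on separate chromosomes of GRCm38. Il12a (ENSMUSG00000027776) spans bases 68690644 to 68698547 on the plus strand of chromosome 3, and Il12b (ENSMUSG00000004296) spans 44400063 to 44414033 on the plus strand of chromosome 11. Il23a (ENSMUSG00000025383) spans 128296139 to 128298752 on the minus strand of chromosome 10. Il27 (ENSMUSG00000044701) spans 126589010 to 126594941 on the minus strand of chromosome 7, and Ebi3 (ENSMUSG00000003206) spans 55952623 to 55957021 on the plus strand of chromosome 17. In GENCODE M21 the exons of Il12a, Il12b and Il23a overlap no other gene. Exons of Il27 overlap Apobr, on the opposite strand, over 10.1% of their bases, and exons of Ebi3 overlap the antisense gene Gm16712 over 23.4%. Whether reads were counted by strand is not given in the sources used here, so reads of these overlaps may be shared. Apobr averaged 38.6 ± 2.92 FPKM in Glul_LPS, 35.1 ± 0.128 FPKM in LPS and 28.8 ± 0.188 FPKM in control cells, and Gm16712 averaged 4.67 ± 0.409, 4.77 ± 0.297 and 2.63 ± 0.2 FPKM in the same order (SD, n = 2 each).

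The RefSeq promoter table held windows for 3 of the 5 genes, Il12a, Il12b and Ebi3. Shown are 250 bases before the start of Il12b, which changed most between Glul_LPS and LPS cells, of its IL-12 partner Il12a, which did not pass the test, and of Ebi3, which was expressed without LPS. All are on the plus strand of GRCm38.p6, at chr11:44399813-44400062, chr3:68690394-68690643 and chr17:55952373-55952622, and Il12a has a second annotated start that is not shown. Capitals mark matches to the motifs named below.
Il12b: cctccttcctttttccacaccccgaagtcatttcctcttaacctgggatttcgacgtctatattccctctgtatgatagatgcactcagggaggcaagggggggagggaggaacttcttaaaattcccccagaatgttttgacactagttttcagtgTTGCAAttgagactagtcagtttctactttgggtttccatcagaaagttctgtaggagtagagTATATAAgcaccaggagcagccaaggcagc
Il12a: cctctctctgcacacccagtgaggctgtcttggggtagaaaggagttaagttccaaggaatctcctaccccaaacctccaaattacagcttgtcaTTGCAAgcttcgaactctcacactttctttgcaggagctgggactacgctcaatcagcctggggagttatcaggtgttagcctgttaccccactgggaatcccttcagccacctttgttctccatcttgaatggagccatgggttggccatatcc
Ebi3: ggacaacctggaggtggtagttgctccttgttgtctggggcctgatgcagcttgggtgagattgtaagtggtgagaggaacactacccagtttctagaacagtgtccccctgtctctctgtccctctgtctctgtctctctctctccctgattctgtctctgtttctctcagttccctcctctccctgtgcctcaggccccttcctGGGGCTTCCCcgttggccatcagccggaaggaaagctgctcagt

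5 motifs were searched on both strands of the 300-base windows (250 bases before and 50 after each start): the NF-kB consensus, the interferon-stimulated response element GAAANNGAAA, the AP-1 motif TGANTCA, the C/EBP motif TTGCAA and the TATA motif TATANAA. The C/EBP motif reads the same on both strands and was counted once per site, and no match overlapped another motif. The Il12b window held TTGCAA at −93 to −88 and TATATAA at −30 to −24 from the start, as marked in its sequence. The Il12a window held TTGCAA at −155 to −150, and the window of Ebi3 held the NF-kB consensus at −44 to −35. The second Il12a window held none of the 5. Of 32851 promoter windows, 6.23% held TTGCAA, 11.3% the TATA motif, 4.51% the NF-kB consensus, 3.44% the response element and 7.81% the AP-1 motif. A match describes the letters and is not evidence of binding.

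LPS with control asked how the subunits respond to LPS. Of the 4 subunits that could be tested, 4 rose and 0 fell, against 17.1% of the 10962 genes tested that were called higher, 68% called lower and 85.2% called in either direction. The test was a limma fit on log2(FPKM + 1) over all 6 libraries, and a call means a p-value under 0.05 after Benjamini-Hochberg adjustment across those genes. Il12a and Il12b met the minimum level for testing (1 FPKM in at least 2 libraries) only in LPS-treated libraries, so the count of 4 is a description. Across all tested genes the median log2 change was −0.50, and 20.1% of calls were higher as deposited, against 51.8% once libraries were centred on their medians. The subunits rose under both scalings. Marker lists also stood apart here. The macrophage markers summed to 15066 to 16208 FPKM in LPS and 20527 to 21109 FPKM in control libraries, the T cell markers to 7.57 to 8.05 and 12.5 to 14.7 FPKM, and the stromal markers to 2.23 to 2.32 and 2.97 to 3.56 FPKM. The neutrophil markers summed to 9.8 to 10.2 FPKM in LPS and 7.79 to 9.44 FPKM in control libraries, and the 4 B cell markers to 0.049 to 0.145 and 0.159 to 0.262 FPKM. With the dendritic cell sums given above these lists did not overlap, natural killer cell sums did, and their part in the result was not tested. The sums rest on few genes, and the smallest exact two-sided permutation p for 2 libraries against 2 is 0.333. Lyz2 made up most of the macrophage sum (mean 13719 FPKM in LPS against 18200 FPKM in control cells). Fcgr1 (179 against 107 FPKM) and Mertk (28.5 against 24.9 FPKM) went the other way. Cd4 made up most of the T cell sum (7.66 against 13.3 FPKM). Of the dendritic cell markers, Xcr1 was higher in LPS cells (1.19 against 0.118 FPKM) and Clec9a lower (0.0827 against 0.525 FPKM).

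The IL-12 subunits had almost no transcript without LPS. Il12a (p35) stood at 20.96 and 16.6 FPKM in LPS B and C, against 0.283 and 0.0678 FPKM in control B and C, which rested on 9 and 2 fragments. The log2 change was 4.07 (SE 0.14, adjusted p = 1.88e-06). Il12b (p40) stood at 54.5 and 40.2 FPKM in LPS B and C, against 0.163 and 0.147 FPKM in control B and C, or 6 and 5 fragments. Its log2 change was 5.37 (SE 0.16, adjusted p = 1.03e-06). The groups were far apart for both genes, and the added 1 FPKM understates such changes. As ratios of fragments, LPS over control, Il12a was 104-fold higher (95% interval 58.1 to 210) and Il12b 303-fold higher (169 to 609), intervals that cover counting error only, and limma voom on fragments gave log2 changes of 6.85 and 8.11. The Il12a ratio depended on the control library, at 276 (76.3 to 2283) without control B and 66.2 (34.7 to 145) without control C.

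Both IL-27 subunits rose with LPS. Il27 (p28) stood at 439 and 408 FPKM in LPS B and C, against 2.78 and 2.71 FPKM in control B and C. This was a log2 change of 6.82 (SE 0.05, adjusted p = 1.23e-08), and the ratio of mean FPKM was 154. Ebi3 stood at 54.4 and 52.8 FPKM in LPS B and C, against 32.1 and 35.1 FPKM in control B and C. Its groups did not overlap and its log2 change was 0.66 (SE 0.06, adjusted p = 7.41e-05), or 1.18 after median centring. Ebi3 was 0.124 and 0.13 times Il27 in LPS B and C, against 11.6 and 12.9 times Il27 in control B and C. Thus Ebi3 exceeded its IL-27 partner in both control libraries and was below it in both LPS libraries.

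Il23a (p19) stayed below the level needed for testing. It had 4 and 9 fragments in Glul_LPS B and C (0.105 and 0.256 FPKM), 20 and 16 fragments in LPS B and C (0.553 and 0.416 FPKM), and 0 in both control libraries. Against a floor of 3 fragments over the control group, it was 13.0-fold higher in LPS and 4.78-fold higher in Glul_LPS cells. These ratios leave out counting error in the LPS and Glul_LPS libraries, so they are not lower bounds. The ratio to this floor in Glul_LPS cells was 2.82 without Glul_LPS C. With 1 control library the ratios were 6.26 to 6.76 for LPS and 2.3 to 2.48 for Glul_LPS cells. For Il23a the ratio of Glul_LPS to LPS fragments per library total was 0.367 (exact 95% interval 0.179 to 0.709), which covers counting error only. It was 0.217 (0.056 to 0.605) without Glul_LPS C and 0.53 (0.225 to 1.12) without Glul_LPS B. Both Glul_LPS libraries were below both LPS libraries, on 13 against 36 fragments. With no filter on low values Il23a passed the test in LPS with control (adjusted p = 0.0039) but not in Glul_LPS with LPS (adjusted p = 0.299). PCR copies are not told apart from molecules in such counts.

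Glul_LPS with LPS compared cells labelled as overexpressing Glul with LPS cells, whose vector the labels do not name. Glul itself did not pass the test between them. Of the 4 subunits tested, 2 fell, Il12b and Il27, and 0 rose, against 0.556% of the 10962 genes tested that were called lower, 0.547% called higher and 1.1% called in either direction. Il12b stood at 14.6 and 18.5 FPKM in Glul_LPS B and C, against 54.5 and 40.2 FPKM in LPS B and C. Both Glul_LPS libraries were below both LPS libraries. The log2 change was −1.45 (SE 0.16, adjusted p = 0.0242), a ratio of 0.366 on the log2(FPKM + 1) scale with a 95% interval of 0.279 to 0.479.

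Il27 stood at 289 and 288 FPKM in Glul_LPS B and C, against 439 and 408 FPKM in LPS B and C, again with no overlap. Its log2 change was −0.55 (SE 0.05, adjusted p = 0.0202), a ratio of 0.683 (95% interval 0.627 to 0.744). Apobr, whose exons overlap it, averaged 38.6 against 35.1 FPKM. With 2 libraries a group these calls were fragile. The call of Il12b was lost without any 1 of the 6 libraries (adjusted p = 0.0633 to 0.0988, log2 changes −1.67 to −1.24), and that of Il27 without any 1 of the 4 Glul_LPS and LPS libraries (adjusted p = 0.061 to 0.103, log2 changes −0.60 to −0.50). Both calls were also lost with no filter on low values, and that of Il12b in a fit of the compared groups alone, while directions did not change. Some marker lists stood apart between the same groups. The 7 macrophage markers summed to 17577 to 18820 FPKM in Glul_LPS and 15066 to 16208 FPKM in LPS libraries, the 5 T cell markers to 8.35 to 10.8 and 7.57 to 8.05 FPKM, and the 5 neutrophil markers to 6.79 to 9.12 and 9.8 to 10.2 FPKM, and the 3 stromal markers to 2.33 to 2.94 and 2.23 to 2.32 FPKM. The dendritic, B cell and natural killer cell sums overlapped. These sums rest on few genes, and the smallest exact two-sided permutation p for 2 libraries against 2 is 0.333. The stromal sums were barely apart, and Col1a1, Col1a2 and Dcn each overlapped between the groups. Lyz2 made up most of the macrophage sum (mean 16043 FPKM in Glul_LPS against 13719 FPKM in LPS cells). Mertk went the other way (24.8 against 28.5 FPKM). Cd4 made up most of the T cell sum (9.44 against 7.66 FPKM). Of the neutrophil markers, S100a9 was lower in Glul_LPS cells (1.16 against 3.45 FPKM) and S100a8 was not (6.68 against 6.47 FPKM). No listed marker was at 0 in all libraries, and the part of these differences in the result was not tested.

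The partner subunits did not pass the test. Il12a stood at 16.9 and 19.7 FPKM in Glul_LPS B and C, against 20.96 and 16.6 FPKM in LPS B and C, so the groups overlapped. The log2 change was −0.03 (SE 0.14, adjusted p = 0.937), with a 95% interval of −0.38 to 0.31 that leaves a smaller change in either direction possible. Ebi3 stood at 65.1 and 68.3 FPKM in Glul_LPS B and C, against 54.4 and 52.8 FPKM in LPS B and C. Here both Glul_LPS libraries were above both LPS libraries, but the log2 change of 0.31 (SE 0.06) did not pass (adjusted p = 0.0754). It passed with a filter at a mean of 5 FPKM (adjusted p = 0.0358) and in limma voom on fragments (adjusted p = 0.0115). Its antisense neighbour Gm16712 averaged 4.67 against 4.77 FPKM.

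**Figure D2:**
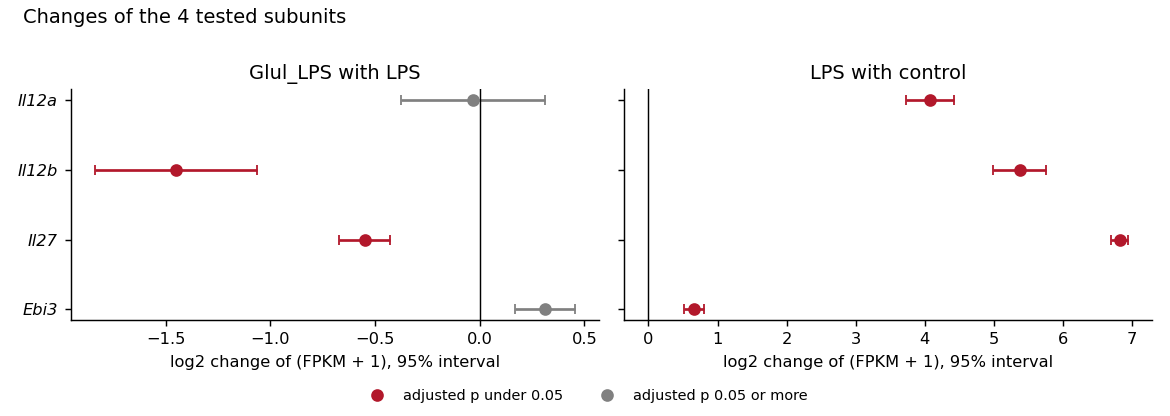
Log2 change of (FPKM + 1) with its 95% interval for the 4 tested subunits, in Glul_LPS with LPS (left) and LPS with control (right), on axes of different range. Red points passed the threshold of 0.05 on the adjusted p and grey points did not. Il12b (−1.45) and Il27 (−0.55) lie below 0 on the left, and all 4 lie above 0 on the right.

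Ratios of partner transcripts were taken within each library, since the partners form one protein. Il12b was 0.868 and 0.942 times Il12a in Glul_LPS B and C, against 2.6 and 2.42 times in LPS B and C. In FPKM the p40 transcript thus exceeded p35 in both LPS libraries and was slightly below it in both Glul_LPS libraries. Which side of 1 a ratio falls on depends on the exon lengths used (1701 bases for Il12a and 1967 for Il12b). The change between groups does not. The log2 ratio differed by −1.47 (Glul_LPS minus LPS), and by −1.53 to −1.41 without 1 library. Ebi3 was 0.225 and 0.237 times Il27 in Glul_LPS B and C, against 0.124 and 0.13 times in LPS B and C, a log2 ratio that was 0.87 higher in Glul_LPS cells. For both ratios the exact two-sided permutation test gave p = 0.333, the smallest that 2 libraries against 2 allow. The ratio of Ebi3 to Il12a, the IL-35 pair, was 3.86 and 3.47 in Glul_LPS B and C, against 2.59 and 3.18 in LPS B and C (log2 difference 0.35, exact permutation p = 0.333), and the difference was 0.21 to 0.50 without 1 library, 0.21 without LPS B. Il12b exceeded Il23a, its IL-23 partner, 140-fold and 72.5-fold in Glul_LPS B and C, against 98.5-fold and 96.5-fold in LPS B and C, and these overlapped (exact permutation p = 1).

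**Figure D3:**
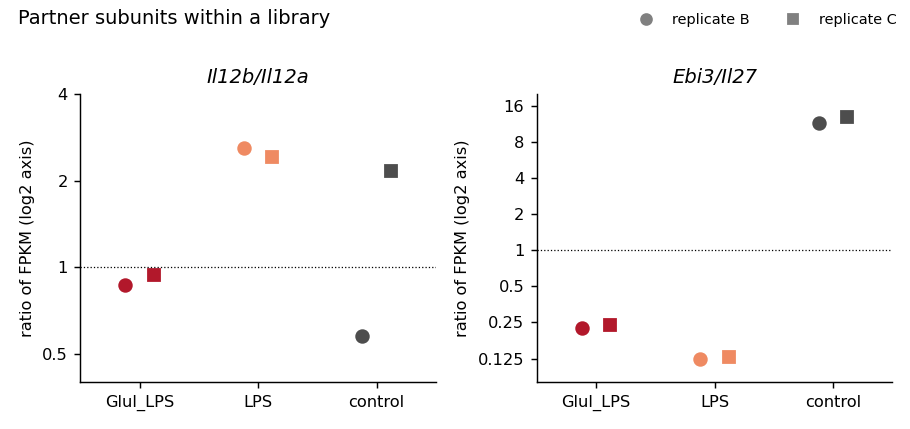
Ratio of FPKM of the partner subunits of IL-12 (Il12b/Il12a, left) and IL-27 (Ebi3/Il27, right) in each library, on log2 axes, with a dotted line at 1. Circles are replicate B and squares replicate C. Il12b/Il12a is below 1 in both Glul_LPS libraries and above 2 in both LPS libraries, and its control values, 0.577 and 2.16, rest on 2 to 9 fragments per gene.

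The order of mean levels was taken within each group. In Glul_LPS cells it was Il27, Ebi3, Il12a, Il12b and Il23a, and Il12a (16.9 and 19.7 FPKM) and Il12b (14.6 and 18.5 FPKM) overlapped. In LPS cells it was Il27, Ebi3, Il12b, Il12a and Il23a, where Ebi3 (54.4 and 52.8 FPKM) and Il12b (54.5 and 40.2 FPKM) overlapped. In control cells Ebi3 came first and Il27 next, and Il12a, Il12b and Il23a were under 0.3 FPKM in both libraries.

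Glul_LPS with control shares its libraries with the other comparisons and gave the size of the response in Glul_LPS cells. The 4 tested subunits were higher there too, against 16.9% of genes called higher, 67.4% called lower and 84.3% called in either direction. Il12a and Il12b met the minimum level for testing only in LPS-treated libraries, so this count too is a description. The log2 changes over control were 4.04 for Il12a, 3.92 for Il12b, 6.27 for Il27 and 0.97 for Ebi3 in Glul_LPS cells. Those of LPS over control were 4.07, 5.37, 6.82 and 0.66 for the same genes. The added 1 FPKM understates the changes of Il12a and Il12b here too, so these values do not rank the subunits. As ratios of fragments, Glul_LPS over control, Il12a was 101-fold higher (95% interval 56.5 to 204) and Il12b 106-fold higher (59.2 to 214). These intervals cover counting error only, and the Il12a ratio was 268 without control B and 64.3 without control C. For Il27 the ratio of mean FPKM was 105.

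Of the 5 receptor chains through which the family acts, Il6st was the most abundant, and the other 4 averaged under 1.5 FPKM in each group. Il12rb1, shared by IL-12 and IL-23, averaged 0.583 ± 0.0345 FPKM in Glul_LPS, 0.654 ± 0.0382 FPKM in LPS and 0.556 ± 0.209 FPKM in control cells (SD, n = 2 each). Il27ra, the IL-27 receptor chain, averaged 0.357 ± 0.0655, 0.317 ± 0.0962 and 0.831 ± 0.102 FPKM in the same order. Il23r, the IL-23 receptor, had 0.685 and 1.39 FPKM in Glul_LPS and 0.874 and 0.799 FPKM in LPS B and C, against 0.043 and 0.0928 FPKM in control B and C. These 3 were below the level needed for testing. Of the other two, Il12rb2 (IL-12) passed in neither comparison (adjusted p = 0.378 in Glul_LPS with LPS and 0.935 in LPS with control). Il6st, the gp130 chain that IL-27 shares with IL-6, fell with LPS, to 5.78 ± 0.391 FPKM in LPS against 14.3 ± 0.451 FPKM in control cells (log2 change −1.18, adjusted p = 1.12e-05).

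Of the 6 kinases and STAT factors downstream of these receptors, 4 rose and 1 fell with LPS, where 85.2% of all genes tested were called (17.1% higher and 68% lower). In Glul_LPS with LPS 0 of the 6 passed the limma test, where 1.1% of all genes tested were called (1 of the 6 lay below 0, and the median log2 change was 0.06 against 0.02 for all genes tested). Jak2, a receptor kinase, rose to 199 ± 14.0 FPKM in LPS against 26.2 ± 0.466 FPKM in control cells (log2 change 2.88). Stat3 (0.76), which transduces IL-27 and IL-23 signals, rose as well. Stat4, the transducer of IL-12, fell (−0.66), a call that median centring (log2 change −0.14) and quantile normalization (−0.10) ended. The 6 genes listed for T cell responses to the family, Ifng and Il17a among them, were all at or below 0.211 FPKM in every library.

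Among 19 transcription factors and nuclear regulators known at IL-12 family genes, 10 rose and 5 fell with LPS, against 17.1% of all genes tested called higher, 68% lower and 85.2% in either direction. Among the largest were Irf1 (log2 change 3.21) and Nfkbiz (3.02), an IkB protein needed for Il12b in mouse macrophages, with Fos (−3.32) in the other direction. Irf8 rose to 133 ± 6.85 FPKM in LPS against 32.4 ± 0.629 FPKM in control cells (SD, n = 2 each). In Glul_LPS with LPS, 2 of the 19 fell and 1 rose, against 0.556% of all genes tested called lower and 0.547% higher. Of the 19, 14 lay below 0, and the median log2 change was −0.11 against 0.02 for all genes tested. Irf8, an interferon regulatory factor known to act at the Il12b promoter, stood at 90.9 and 72.3 FPKM in Glul_LPS B and C, against 137 and 128 FPKM in LPS B and C (log2 change −0.70, SE 0.11, adjusted p = 0.0457). Atf3, known as a repressor of Il12b, stood at 126 and 129 FPKM in Glul_LPS B and C, against 164 and 162 FPKM in LPS B and C (−0.35, adjusted p = 0.0253). Fos, part of AP-1, stood at 24.8 and 29.6 FPKM in Glul_LPS B and C, against 16.5 and 16.3 FPKM in LPS B and C (0.69, adjusted p = 0.0253). The groups did not overlap for any of these 3 genes, which were named because they passed, so this adds nothing to the test. Their calls were lost without 5 (Irf8), 6 (Atf3) and 5 (Fos) of the 6 libraries in turn, and the replicate block ended that of Atf3 (adjusted p = 0.0601). With no filter, no mean-variance trend or the compared groups alone, all 3 calls were lost, and that of Irf8 also with TPM, quantile normalization (adjusted p = 0.055) or a pseudocount of 0.1.

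Of 13 signals that induce or restrain the family, 10 rose and 2 fell with LPS, against the same 17.1% higher, 68% lower and 85.2% in either direction over all genes tested. They were led by Socs1 (log2 change 7.04) and Socs3 (4.96), inhibitors of cytokine signalling, Cd40 (5.70), the receptor through which T cells raise IL-12, and Ifnb1 (3.55). In Glul_LPS with LPS, 1 of the 13 fell and 0 rose, against 0.556% of all genes tested called lower and 0.547% higher. Of the 13, 6 lay below 0, and the median log2 change was 0.05 against 0.02 for all genes tested. Ifnb1, interferon beta, stood at 6.42 and 4.77 FPKM in Glul_LPS B and C, against 14.6 and 16.5 FPKM in LPS B and C (−1.33, SE 0.13, adjusted p = 0.0207). Its call was lost without LPS B, LPS C or Glul_LPS C (adjusted p = 0.0669 to 0.0983) and with no filter (adjusted p = 0.106).

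**Figure D4:**
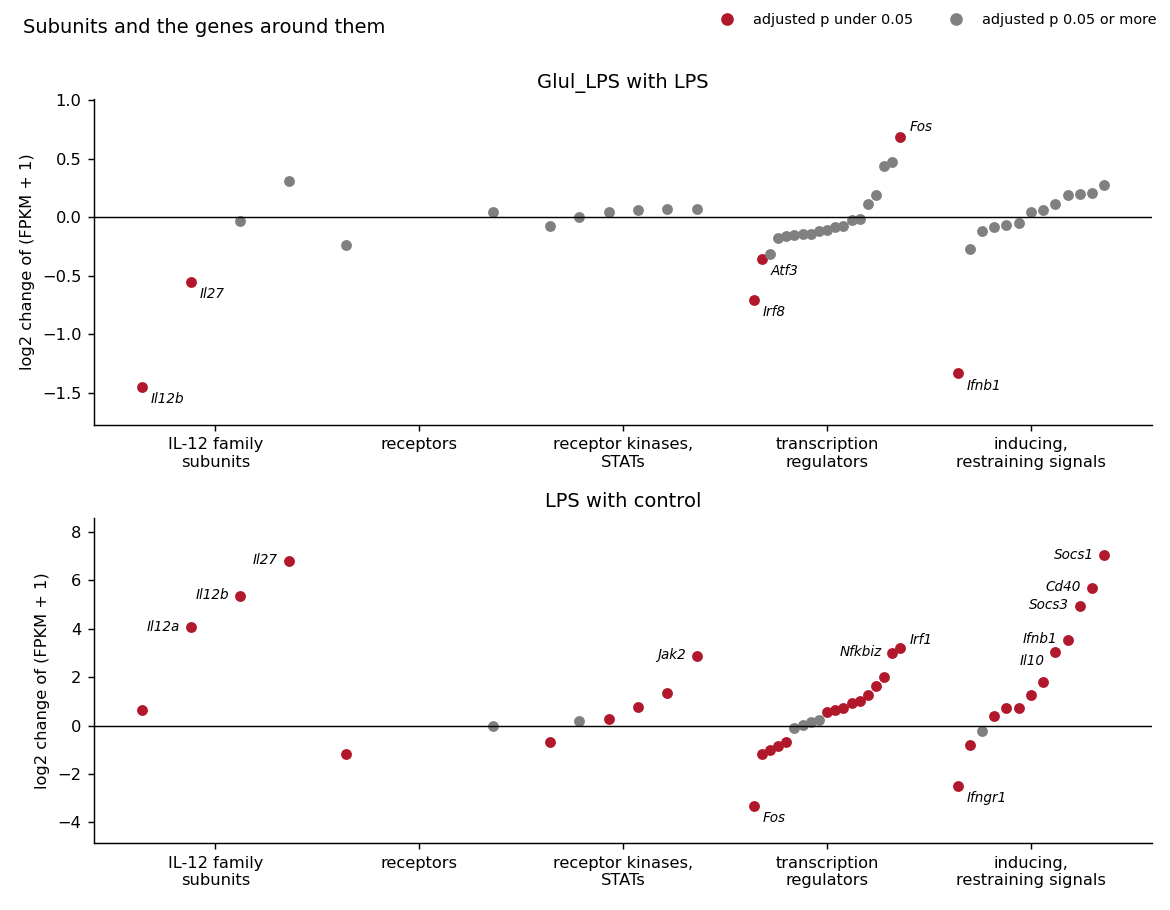
Log2 change of (FPKM + 1) of each tested subunit and of the genes of 4 lists around them, sorted within a list, in Glul_LPS with LPS (top) and LPS with control (bottom), on axes of different range. Red points passed the threshold of 0.05 on the adjusted p. In the top panel Il12b, Il27, Irf8, Atf3 and Ifnb1 passed below 0 and Fos above it, and no receptor, kinase or STAT gene passed.

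The genes most like each subunit across the 6 libraries were taken by the root-mean-square difference of log2(FPKM + 1) values, each centred on its own mean, a description over 6 libraries that LPS itself dominates. Nearest to Il12b were the chemokine gene Ccl7 (difference 0.26), the guanylate-binding protein gene Gbp4 (0.32) and AA467197 (0.34). Ccl7 averaged 42.9 ± 3.19 FPKM in Glul_LPS, 88.2 ± 2.47 FPKM in LPS and 1.2 ± 0.377 FPKM in control cells, and Gbp4 averaged 32 ± 0.9, 64.6 ± 2.13 and 0.333 ± 0.0242 FPKM in the same order (SD, n = 2 each). Nearest to Il27 were Nos2 (0.10), the inducible nitric oxide synthase, Mmp13 (0.12) and Ccl4 (0.14). Nearest to Il12a were Gbp2 (0.09), Gbp3 (0.11) and Tarm1 (0.12), and nearest to Ebi3 were Fchsd2 (0.04), Acat3 (0.05) and Armcx6 (0.05). The distances of Il12b to its neighbours were thus larger than those of the other 3 subunits. A distance also depends on how far the genes move, so it does not rank the subunits by likeness. Acat3 averaged 1.06, 0.732 and 0.0474 FPKM in Glul_LPS, LPS and control cells, and Armcx6 averaged 1.48, 1.07 and 0.291 FPKM. At such low levels the added 1 FPKM shrinks the changes, and the match of these 2 genes to Ebi3 rests on that scale. Il23a, which was not tested, was not compared in this way.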

How the data were processed

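Gene expression was measured in 6 RNA libraries of mouse macrophages. The authors deposited 1 table of FPKM values per gene and library. Tools named in the submitters' processing notes are HISAT2 2.1.0, HTSeq 0.6.0, CASAVA and DESeq2, with the build GRCm38. Their order, the annotation and strandedness are not stated there. A further 6 columns matched no listed sample and were not used.

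The 10962 genes that reached 1 FPKM in 2 or more libraries were tested with limma 3.58.1 under R 4.3.3 on log2(FPKM + 1), with a mean-variance trend, two-sided, all 3 groups in one fit, and no added scaling. No label says that replicates B and C are different animals or cultures, so the p-values reflect only how these libraries vary, and that variation may be technical. Whole fragments (within 0.01) were recovered for 22656 genes from FPKM, GENCODE M21 exon lengths (24703 gene IDs found) and library totals found in the table. For Ebi3 the M21 length of 1154 bases gave no whole fragments, and 1170 bases, which did, was used. The fit was also run on simulated fragment counts whose spread was set by hand, so that run does not show how firm these calls are. Alternatives were other pseudocounts, filters and scalings, a fit of the compared groups alone, a replicate block, no mean-variance trend, limma voom on recovered fragments, and leaving out each library. Leaving out each library for the fragment ratios of Il12a, Il12b and Il23a was added after seeing the data.

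The subunits and gene lists were chosen with earlier results of these data known. Named genes were the subunits, Glul, every list gene called in Glul_LPS with LPS, up to 4 called genes a list with the largest change in LPS with control, the 3 nearest tested genes of each subunit (predicted genes, pseudogenes and ribosomal protein genes left out) and the most abundant marker of each other cell type. The receptor and T cell lists, the markers that define dendritic and T cells, and Apobr and Gm16712 are given beyond this rule, and some list genes are not reported here.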

Additional observations from a re-analysis of the deposited data

How the results depend on the processing

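In LPS with control and Glul_LPS with control, all 4 tested subunits stayed called, in the same direction, under every alternative and without any 1 library. In Glul_LPS with LPS, the number called was 2, and it was 0 with no filter, 1 in a fit of the compared groups alone, and lower without any 1 library. It was 3, with Ebi3 called higher, at a mean of at least 5 FPKM and in limma voom on recovered fragments. Over all genes, 121 were called there, against 9 with no filter, 264 at a mean of at least 5 FPKM, 59 with the compared groups alone, 42 with no mean-variance trend, 549 in limma voom on recovered fragments, and 1 to 57 without 1 library, the fewest without LPS B. At a mean of at least 5 FPKM, 5055 genes were called in LPS with control (9338 as reported) and 4977 in Glul_LPS with control (9241), of 5791 tested. The causes were not tested, except that this filter leaves fewer genes. The log2 change of Il12a in Glul_LPS with LPS, −0.03, became 0.12 without LPS B and 0.07 without Glul_LPS B, and ranged from −0.19 to 0.12 without 1 library. Samples sharing a replicate letter did not deviate together across genes (correlations of −0.05 to 0.00). This cannot show whether a letter marks a shared animal, culture or batch. With the replicate block, Il12b (adjusted p = 0.0417) and Il27 (adjusted p = 0.0302) stayed called in Glul_LPS with LPS, where 87 genes passed. Depth limits Il23a in all groups and the control levels of Il12a and Il12b.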
